A study of Mus musculus with 2 samples.

Results

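The C-type natriuretic peptide pathway genes are described here by the open chromatin found at them in the embryonic mouse femur. They were the 6 genes Nppc, Npr2, Npr1, Npr3, Prkg2 and Prkg1, and every ATAC-seq peak lying inside one of these genes, or within 100 kb of it, was counted. Merging the overlapping peaks of both femur ends gave 40 regions at the 6 genes, of 32388 regions in all. The 40 regions held 37 of the 28257 proximal peaks and 31 of the 27958 distal peaks. ATAC-seq uses the Tn5 transposase to cut accessible DNA, so that a peak marks a stretch of open chromatin. Both groups were femoral growth plate tissue of FVBNJ embryos at E15.5, with no treatment, 1 group from the proximal end of the femur and 1 from the distal end. Cartilage ends of right and left femurs from 1 litter, of about 8 animals, were pooled for each library, and 50000 cells went into each reaction. The dissected tissue was mostly growth plate with the perichondrium around it, so a peak cannot be assigned to 1 cell layer, and the labels do not state the sex of the embryos. The peaks used had passed an irreproducible discovery rate (IDR, a measure of agreement between replicates) of 0.05 over 2 biological replicates, and each femur end has 1 list of positions with no height, score or p-value. There is therefore no replicate error on any value below, no test of proximal against distal was possible, and a peak called at 1 end only may have fallen just short of the cutoff at the other.

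C-type natriuretic peptide, the product of Nppc, is a secreted signal made in growth plate cartilage. It binds natriuretic peptide receptor B (Npr2), a membrane guanylyl cyclase that makes cyclic GMP, and cyclic GMP activates cGMP-dependent protein kinases, of which type II (Prkg2) is the one best known in chondrocytes. This signal opposes the MAP kinase arm of fibroblast growth factor receptor 3 and promotes the growth of long bones: mice that lack Nppc, Npr2 or Prkg2 are dwarfed, and mice that lack the clearance receptor Npr3 have long bones.

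Across both lists, 23635 merged regions contained a peak of both ends (called shared below), 4559 a proximal peak only and 4194 a distal peak only. Of the 32388 regions, 27.0% were therefore called at 1 femur end only, 14.1% at the proximal end only and 12.9% at the distal end only. A promoter region was one with its nearest edge no more than 1 kb from an annotated start of transcription. The lists name 19 chromosomes, all autosomes, and 59.1% of the 20807 autosomal protein-coding genes had a promoter region in either list, 56.4% in the proximal list and 57.8% in the distal list. Of 13 chondrocyte marker genes 9 had a promoter region, with none at Matn1, Ihh, Pth1r and Col10a1. None of 4 osteoblast and 5 skeletal muscle markers had one, while endothelium (1 of 4, Kdr), epithelium (1 of 4, Epcam) and neuron (2 of 4, Snap25 and Syt1) each had some, and the part of such cells in the results was not tested. Ihh and Pth1r are growth plate genes and had 3 and 6 shared regions in their windows, so a missing promoter region in these lists does not show that a gene was closed or silent.

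The 6 genes fell into different arrangements. Nppc and Prkg2 had open start sites at both femur ends. The receptor genes Npr2, Npr1 and Npr3 had no peak at a start site and none anywhere inside the gene. Prkg1 had 1 start site under a proximal-only peak and its other main start site under a distal-only peak. In counts, 3 of the 6 genes had a promoter region, near the share of 59.1% over all autosomal protein-coding genes. Of the 40 regions, 14 lay inside a gene of the 6 (10 in Prkg1, 3 in Prkg2 and 1 in Nppc). By end, 28 regions were shared, 9 were proximal only and 3 were distal only. By position, 5 regions were promoters of the 6 genes, 8 lay in their introns, 11 were intergenic, 15 were promoters of other protein-coding genes and 1 lay at the start of a pseudogene.

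**Figure D1:**
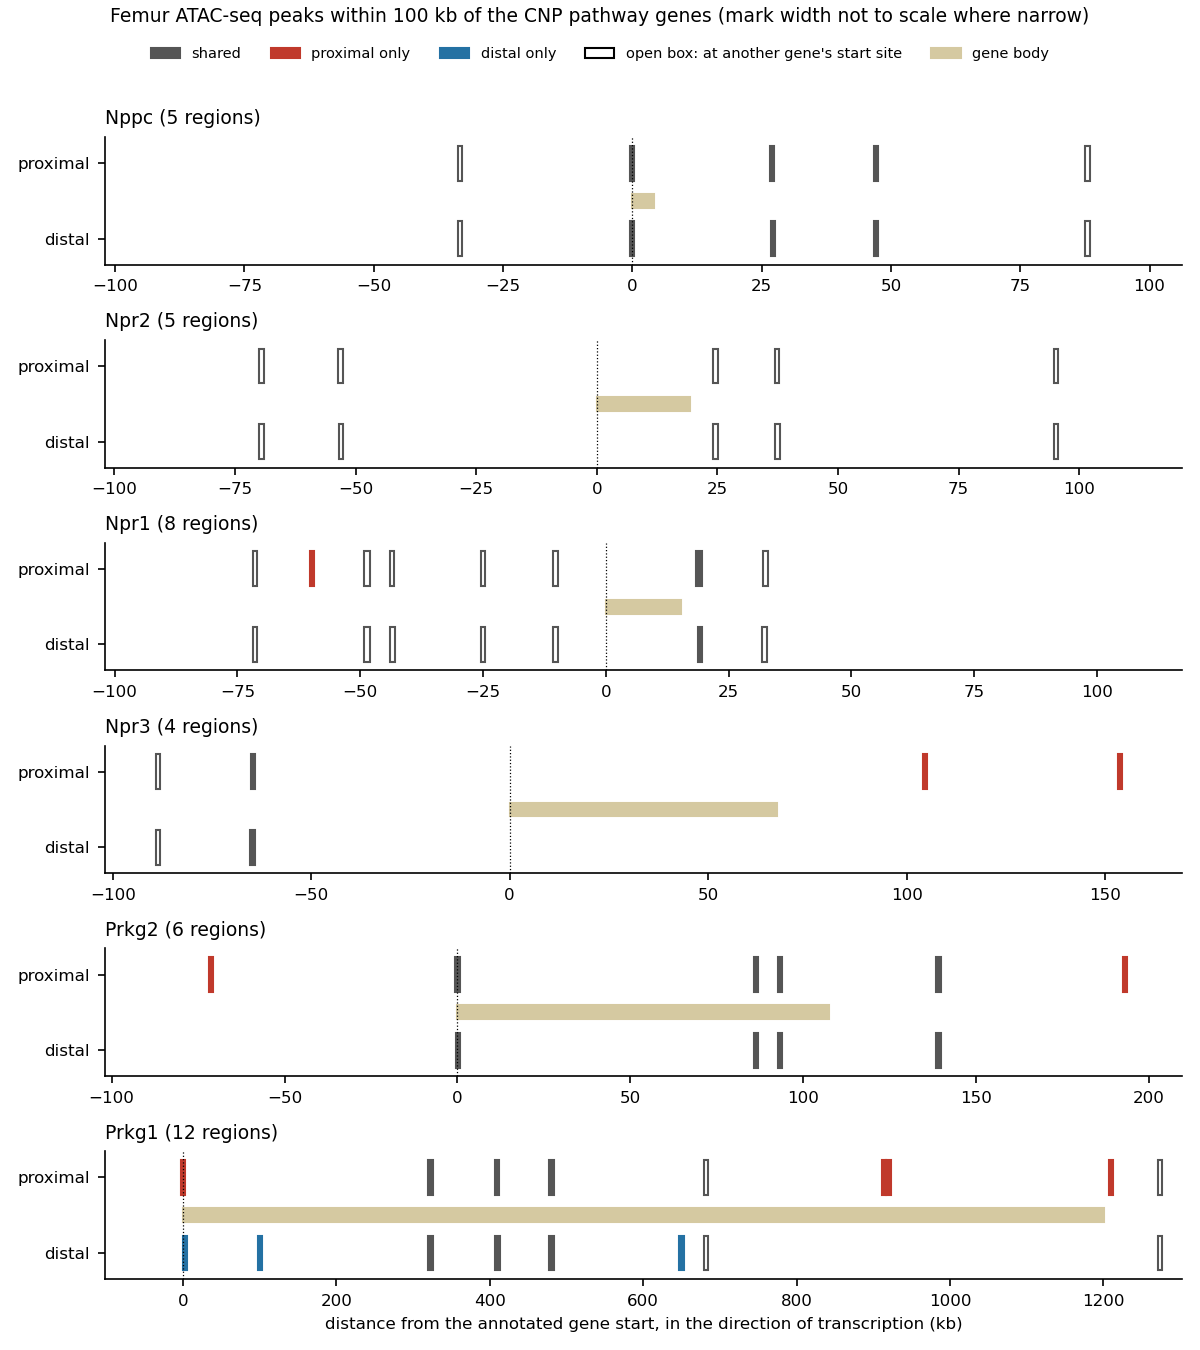
Peaks of the proximal (upper row) and distal (lower row) lists at each gene, against the distance from the annotated gene start in kb, in the direction of transcription. Grey marks are shared, red proximal only and blue distal only; open boxes lie at the start site of another gene, the tan bar is the gene itself, and narrow peaks are drawn wider than scale. Npr2, Npr1 and Npr3 have no mark over their tan bars, and all 3 blue marks lie in Prkg1.

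Of the 40 regions, 12 (30.0%, 95% Wilson interval 18.1 to 45.4, counting error only) were called at 1 end only, against the 27.0% of all regions. The share differed among the genes. Prkg1 had 7 single-end regions of 12 (58.3%, interval 32.0 to 80.7), and the other 5 genes together had 5 of 28 (17.9%, interval 7.88 to 35.6), all 5 proximal only. Position has to be read beside these shares, since single-end calls were less frequent at start sites throughout the lists: 10.6% of the 12418 regions within 1 kb of a protein-coding start site were called at 1 end only, against 38.0% of the 18614 regions further than 1 kb from every start site. At the 6 genes, 2 of 21 regions at a start site of any gene (9.52%) and 10 of 19 regions away from start sites (52.6%, interval 31.7 to 72.7) were called at 1 end only. The 21 include 1 region at a pseudogene start, so they are not exactly the class of the 12418 regions. The 2 at start sites are the 2 promoter regions of Prkg1. Most of the 28 regions of the other 5 genes lay at start sites, and all of those were shared. The shares of Prkg1 and of the other 5 genes therefore do not compare like positions.

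**Figure D2:**
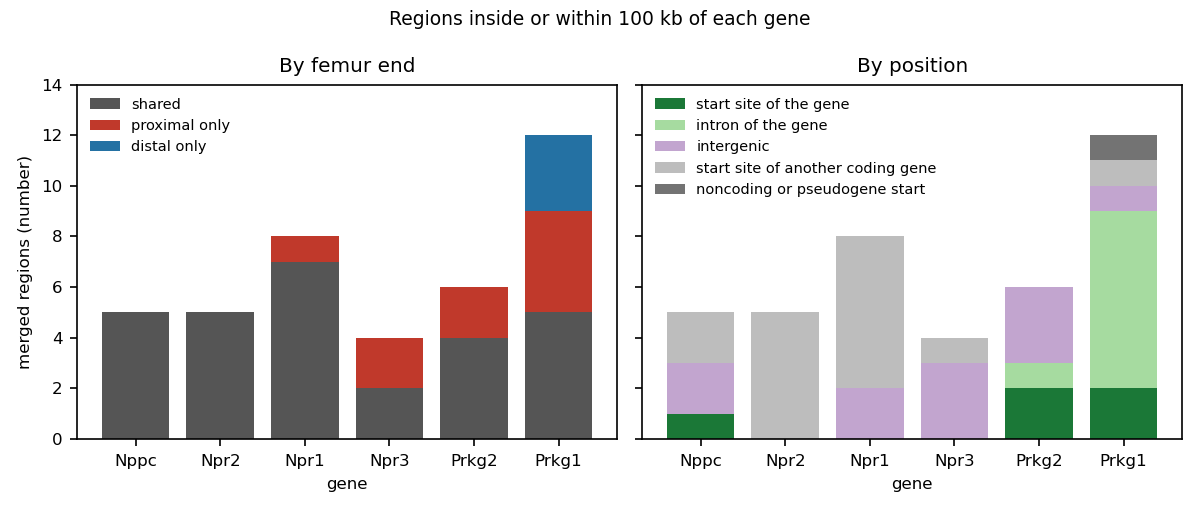
Number of merged regions inside or within 100 kb of each gene, divided by femur end on the left and by position on the right. Nppc and Npr2 have shared regions only, Npr1, Npr3 and Prkg2 add proximal-only regions, and Prkg1 alone has distal-only regions, 3 of 12.

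The ligand gene Nppc (chr1:86666291-86670571, minus strand) had 5 regions, all 5 of them shared. A single promoter region covered the start site, chr1:86670187-86670960, and its edges were nearly the same at both ends: the proximal peak was 745 bp wide, the distal peak was 774 bp wide, and their overlap was 96.3% of the wider. This region reached over the 5′ UTR into the coding sequence, and no other region lay inside the gene. The promoter window of Nppc in the RefSeq table (GRCm38, 250 bases before to 50 after the start) was rich in CpG dinucleotides, with a GC content of 69.3%, 29 CpGs and an observed-to-expected CpG ratio of 0.806. It is shown because it is the open start site of the ligand that begins the pathway, with each CpG in capitals.
Nppc start, chr1:86670524-86670823, minus strand: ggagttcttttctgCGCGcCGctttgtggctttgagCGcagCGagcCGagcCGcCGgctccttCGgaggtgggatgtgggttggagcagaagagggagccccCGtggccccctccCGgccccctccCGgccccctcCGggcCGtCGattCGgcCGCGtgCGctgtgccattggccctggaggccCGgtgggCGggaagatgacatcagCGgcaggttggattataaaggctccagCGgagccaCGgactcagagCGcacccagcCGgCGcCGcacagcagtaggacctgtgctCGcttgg

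Beyond the gene's 3′ end lay a pair of shared intergenic regions that belong to no other annotated promoter. The nearer, chr1:86643077-86643989, was 22302 bp past the gene. It was 883 bp wide in the proximal list and 691 bp in the distal list, and of all protein-coding start sites that of Nppc was closest to it. The further one, chr1:86623045-86623928, lay 42363 bp past the gene, was 884 bp and 857 bp wide, and was closest to the start of Cops7b, at 26305 bp. This further region held 3 copies of TGACTCA or its reverse complement TGAGTCA, the letters bound by AP-1 factors such as Fos and Jun. Across all regions, 33.4% held at least 1 copy, and 19.9% held one in the 200 bp around their centre. The central 200 bp is shown because the region held the most copies of these letters at the 6 genes, with the copy it contains in capitals.
Region downstream of Nppc, chr1:86623387-86623586, plus strand: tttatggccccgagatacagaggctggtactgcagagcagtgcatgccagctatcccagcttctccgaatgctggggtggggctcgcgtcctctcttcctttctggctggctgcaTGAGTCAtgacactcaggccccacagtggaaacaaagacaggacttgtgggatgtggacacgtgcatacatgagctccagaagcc
The remaining 2 regions in the Nppc window were promoters of other genes, the divergent pair Cops7b and Pde6d downstream and Dis3l2 upstream. Pde6d encodes a binding protein for prenylated proteins and Dis3l2 an exoribonuclease. With 5 regions, or 2.45 per 100 kb of window, Nppc was close to the median autosomal protein-coding gene, which had 5 regions and 2.00 per 100 kb.

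Npr2 (chr4:43631935-43651244, plus strand), the guanylyl cyclase receptor for the ligand, had 5 regions and not 1 of them was its own. All 5 were shared, and all 5 covered start sites of other protein-coding genes: Creb3 with Tln1, Gba2 with Rgp1, Hint2, Fam221b with Tmem8b, and Hrct1. The nearest of these to the annotated gene start, the promoter of Hint2, was 24127 bp away and 4818 bp beyond the 3′ end of Npr2. GENCODE gives 10 start sites for the gene, and the closest approach of any region to any of them was 8057 bp. No region in the lists had an Npr2 start as its nearest protein-coding start site. At the 5 neighbouring promoters the peak widths of the 2 ends differed by at most 96 bp. The promoter window of Npr2 is shown because the start of the main receptor gene had no peak at either end. Its GC content was 64.0%, it had 13 CpGs (in capitals), and its CpG ratio was 0.463.
Npr2 start, chr4:43631685-43631984, plus strand: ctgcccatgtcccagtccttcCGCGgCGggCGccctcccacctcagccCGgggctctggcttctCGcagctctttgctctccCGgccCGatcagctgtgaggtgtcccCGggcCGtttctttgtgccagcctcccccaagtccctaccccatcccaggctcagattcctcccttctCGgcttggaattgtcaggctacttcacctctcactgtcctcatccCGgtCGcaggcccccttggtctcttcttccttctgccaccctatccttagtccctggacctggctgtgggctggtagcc

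Npr1 (chr3:90450591-90465866, minus strand), the guanylyl cyclase receptor for the atrial and brain natriuretic peptides, lay in a window of 3.72 regions per 100 kb, a density that 83.0% of autosomal protein-coding genes had or fell below, and had none at its start. Its 8 regions comprised 6 promoters of neighbours (Ints3, Ilf2, Snapin, Chtop, the pair S100a1 and S100a13, and S100a16), all shared, and 2 intergenic regions. The region closest to the gene was shared, chr3:90446319-90447463, 3128 bp beyond its 3′ end. It was 1145 bp wide in the proximal list and 782 bp in the distal list, and the distal peak lay wholly inside the proximal one. The other, chr3:90525437-90525829, was a 393 bp proximal-only peak 1027 bp from the start of S100a14, just outside the 1 kb limit for a promoter. The start of Npr1 itself was 9731 bp from the nearest region, which was the promoter of Ilf2. Its promoter window had a GC content of 69.7%, 26 CpGs and a CpG ratio of 0.716, close to the values of Nppc. Among RefSeq promoter windows with a GC content of at least 55% and a CpG ratio of at least 0.65, 88.2% of 7880 had a region within 1 kb, against 34.9% of the 12205 other windows. The windows of Npr2 and Npr3 were among the other windows, most of which had no region. The start of Npr1 was thus a CpG-rich start without a region, and its sequence is shown for comparison with that of Nppc, with CpGs in capitals.
Npr1 start, chr3:90465817-90466116, minus strand: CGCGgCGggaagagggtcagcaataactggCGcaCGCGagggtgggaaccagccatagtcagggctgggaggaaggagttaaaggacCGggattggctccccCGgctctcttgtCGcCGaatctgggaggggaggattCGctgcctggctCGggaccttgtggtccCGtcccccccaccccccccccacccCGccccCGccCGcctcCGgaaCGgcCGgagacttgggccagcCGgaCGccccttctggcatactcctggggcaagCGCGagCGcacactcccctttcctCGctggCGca

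Npr3 (chr15:11839896-11907287, minus strand), the clearance receptor that removes natriuretic peptides and carries no cyclase domain, had the fewest regions within 100 kb, 4 (6 within 200 kb, as many as Prkg2). No region came within 64399 bp of its annotated start. Downstream of the gene lay 2 narrow proximal-only peaks, 497 bp wide at chr15:11802325-11802821 and 338 bp wide at chr15:11753259-11753596, at 37075 bp and 86300 bp from the 3′ end. For both, Npr3 was the nearest protein-coding start. The nearest distal peaks were 101996 bp and 52930 bp away from them. Peaks of this width were ordinary among proximal-only regions, of which 53.0% and 90.4% were at least as wide. Upstream, chr15:11971686-11972287 was shared, but with the lowest agreement in position of the 28 shared regions: the proximal peak was 561 bp wide, the distal peak was 394 bp wide, and their overlap was 62.9% of the wider. The remaining region was the shared promoter of Sub1. A further shared region that had Npr3 as its nearest protein-coding gene, chr15:11699439-11700349, lay outside the 100 kb window. It was 190639 bp from the closest start site of Npr3, chr15:11890988, which is that of a processed transcript inside the gene. The RefSeq window of Npr3 was poorer in GC (39.0%, 6 CpGs) than those of the other genes in that table. It lies at the start of isoform c, chr15:11907371. The start of isoforms a and b, chr15:11905674, had no window, so its base composition was not measured.

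Prkg2 (chr5:98929773-99037351, minus strand), which encodes the type II cGMP-dependent protein kinase, had 6 regions, and none of them was the promoter of another gene. Its main start site was open at both ends under chr5:99036642-99037897. The distal peak there was 1256 bp wide and the proximal peak was 904 bp wide and lay wholly inside it, so that the overlap was 72.0% of the wider. Inside the gene, a narrower shared region, chr5:98943670-98944271, covered the annotated internal start sites of 2 protein-coding transcripts. It was 588 bp wide in the proximal list and 587 bp in the distal list, with an overlap of 97.4%. RefSeq lists no start at that place, and by that annotation the region would be intronic. Another shared region, chr5:98950561-98951327, lay in an intron 6727 bp from that internal start. In base composition the region at the main start (GC content 64.9%, CpG ratio 0.779) and the one at the internal start (44.5%, 0.228) were far apart. The internal region held 2 copies of the AP-1 letters and 1 of TGTGGT or ACCACA, the letters bound by RUNX factors, which 38.5% of all regions held. The central 200 bp of this region is shown with the AP-1 and RUNX letters in capitals, together with CATTCC or GGAATG, the letters bound by TEAD factors, which 10.7% of all regions held in their central 200 bp.
Region at the internal start of Prkg2, chr5:98943871-98944070, plus strand: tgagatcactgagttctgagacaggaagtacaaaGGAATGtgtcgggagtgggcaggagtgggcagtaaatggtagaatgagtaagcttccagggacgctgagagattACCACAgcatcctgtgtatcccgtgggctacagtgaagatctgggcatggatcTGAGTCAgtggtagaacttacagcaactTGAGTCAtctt

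The other 3 Prkg2 regions were intergenic. The shared region chr5:98897878-98898505, 31268 bp past the 3′ end, was 628 bp and 588 bp wide and held 2 copies of the AP-1 letters. A 460 bp proximal-only peak, chr5:98844126-98844585, lay 85188 bp past the 3′ end but only 9830 bp from the start of Bmp3, a bone morphogenetic protein gene. The widest single-end peak of the 5 genes other than Prkg1 was chr5:99108314-99109138, a proximal-only peak of 825 bp, 70963 bp upstream of Prkg2 and closest to the start of that gene. Of all proximal-only regions 7.59% were at least as wide, and the nearest distal peak was 70417 bp away. It held 3 copies of the RUNX letters, and the 2 in its central 200 bp are capitalised in the sequence shown. Across all regions 13.7% held at least 1 copy in the central 200 bp. RUNX2 is a factor of hypertrophic chondrocytes and osteoblasts, but a match of 6 letters is a description of the sequence and not a measure of binding.
Proximal-only region upstream of Prkg2, chr5:99108627-99108826, plus strand: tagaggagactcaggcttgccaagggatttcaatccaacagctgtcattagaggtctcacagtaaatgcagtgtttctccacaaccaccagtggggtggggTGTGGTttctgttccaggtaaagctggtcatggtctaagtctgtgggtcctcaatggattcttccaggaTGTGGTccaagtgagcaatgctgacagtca

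Prkg1 (chr19:30564489-31765033, minus strand), which encodes the type I cGMP-dependent protein kinase, best known in smooth muscle, had the most regions within 100 kb, 12, over a gene of 1200545 bp. With 200 kb it had 14 and Npr1 had 19. Counted per length it was sparse, at 0.857 regions per 100 kb, and 18.3% of autosomal protein-coding genes had that density or less. The gene has a pair of main start sites 100663 bp apart, whose transcripts encode isoforms alpha and beta of the kinase. They differ in the amino-terminal part, which sets dimer formation and partner binding. The start of isoform alpha lay under a proximal-only peak, chr19:31764258-31765301, of 1044 bp. The start of isoform beta lay under a distal-only peak, chr19:31663557-31664931, of 1375 bp. Each peak spanned its start site, with 268 bp before and 776 bp from the start on for alpha, and 561 bp before and 814 bp from the start on for beta.

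**Figure D3:**
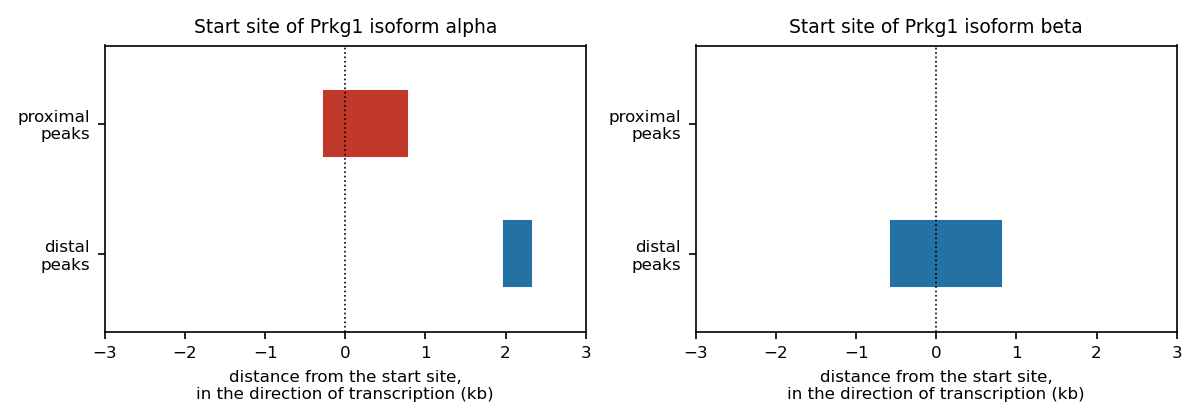
Peaks of the proximal list (red) and the distal list (blue) within 3 kb of the start sites of Prkg1 isoforms alpha (left) and beta (right), against the distance from the start site in kb, in the direction of transcription. The wide peak over the alpha start is in the proximal list, the wide peak over the beta start is in the distal list, and a narrow distal peak lies 1985 bp inside the gene from the alpha start.

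Both peaks were wide for single-end calls. Of 4559 proximal-only regions 1.71% were at least as wide as the one at the alpha start, and of 4194 distal-only regions 0.310% were at least as wide as the one at the beta start. Among single-end regions at protein-coding start sites alone, these shares were 6.92% of 477 and 0.838% of 835. The other end was not empty nearby in the case of alpha: a distal-only intron peak of 336 bp, chr19:31762713-31763048, began 1985 bp into the gene from the alpha start, so that a promoter limit of 3 kb in place of 1 kb gives the alpha start a peak at both ends. At the beta start, the nearest proximal peak was 99888 bp away. Among the 1387 autosomal protein-coding genes with 2 or more promoter regions, 23 (1.66%) had both a proximal-only and a distal-only promoter region. This was counted, and the next genes picked, after the values had been seen. Besides Prkg1 the 23 included Trps1, a zinc finger gene of growth plate chondrocytes, and Prlr, the prolactin receptor.

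The RefSeq windows of both starts are printed because the peak calls of the ends differ here, with CpGs in capitals. Whether accessibility itself differs was not tested. The alpha window had a GC content of 55.3%, 10 CpGs and a CpG ratio of 0.436, and fell outside the CpG-rich class. The beta window had a GC content of 62.3%, 20 CpGs and a CpG ratio of 0.686, and fell inside it.
Prkg1 alpha start, chr19:31764984-31765283, minus strand: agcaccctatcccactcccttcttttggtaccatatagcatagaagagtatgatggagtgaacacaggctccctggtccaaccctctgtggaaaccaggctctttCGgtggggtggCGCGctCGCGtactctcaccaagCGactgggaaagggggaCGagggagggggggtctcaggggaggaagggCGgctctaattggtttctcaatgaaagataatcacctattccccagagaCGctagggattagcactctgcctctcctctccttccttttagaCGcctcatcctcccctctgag
Prkg1 beta start, chr19:31664321-31664620, minus strand: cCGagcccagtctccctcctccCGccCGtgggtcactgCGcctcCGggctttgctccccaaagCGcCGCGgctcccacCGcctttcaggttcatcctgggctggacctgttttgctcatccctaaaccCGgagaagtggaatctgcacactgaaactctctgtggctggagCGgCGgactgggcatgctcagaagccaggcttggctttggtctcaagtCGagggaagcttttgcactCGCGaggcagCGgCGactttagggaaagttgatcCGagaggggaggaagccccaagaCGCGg

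The long introns of Prkg1 held 7 further regions, of which 3 were shared, 2 proximal only and 2 distal only. Over all introns of protein-coding genes, 39.7% of 7069 regions were called at 1 end only, and in the introns of Prkg1 and Prkg2 together the count was 4 of 8 (Wilson interval 21.5% to 78.5%). The proximal-only pair, chr19:30844654-30845349 (696 bp) and chr19:30850891-30851354 (464 bp), lay 5541 bp apart in the 3′ part of the gene, and the nearest distal peaks were 237004 bp and 230999 bp from them. The distal-only peaks were the 336 bp peak near the alpha start and chr19:31114658-31115168, of 511 bp. The shared intron regions were chr19:31284132-31285007, chr19:31354550-31355575 and chr19:31442291-31442736. The second of these was 699 bp wide in the proximal list and 1026 bp in the distal list, an overlap of 68.1%. Long stretches of the gene had no peak at either end, of 230958 bp between the proximal-only pair and the next region, and of 280165 bp between the 3′ end of the gene and the proximal-only pair.

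The AP-1 letters recurred in these introns. Of the 8 intron regions of Prkg1 and Prkg2, 7 (87.5%) held at least 1 copy anywhere in the region, against 48.5% of all 7069 intron regions. The median widths of the 2 sets, 603.5 bp and 587 bp, were close. In the central 200 bp, only the regions printed below held a copy among these 8. The other copies lay outside it, and the share over all introns was not computed for the central 200 bp. With whole regions searched, the letters were present in proximal-only, distal-only and shared introns alike, and the 1 region without them was the 336 bp peak near the alpha start. Over all 40 regions the share was 30.0%, against 33.4% in general, and in the 11 intergenic regions it was 18.2% against 44.6%, so these letters were not more frequent at the 6 genes as a whole. The class was singled out after the matches had been seen. The central 200 bp of a proximal-only and of a shared intron region are shown, each with its AP-1 letters in capitals.
Proximal-only intron region of Prkg1, chr19:30851023-30851222, plus strand: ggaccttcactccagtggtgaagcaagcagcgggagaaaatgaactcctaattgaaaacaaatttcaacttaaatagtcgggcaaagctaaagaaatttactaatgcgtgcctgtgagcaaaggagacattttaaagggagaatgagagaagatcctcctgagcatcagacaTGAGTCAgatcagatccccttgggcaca
Shared intron region of Prkg1, chr19:31442414-31442613, plus strand: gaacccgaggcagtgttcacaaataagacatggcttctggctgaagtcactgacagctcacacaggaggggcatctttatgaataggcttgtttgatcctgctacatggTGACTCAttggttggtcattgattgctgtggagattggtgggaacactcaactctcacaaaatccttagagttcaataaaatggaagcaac

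The remaining regions in the Prkg1 window belonged to other genes or lay near them. The shared promoter of Cstf2t, a gene for a polyadenylation factor that lies within an intron of Prkg1, was 1017 bp wide in both lists. Downstream of Prkg1, the proximal-only peak chr19:30554424-30554946 (523 bp) was 9543 bp past the 3′ end and 4759 bp from the start of Dkk1, a secreted inhibitor of Wnt signalling. A shared region lay at the start of a pseudogene, 72864 bp past the 3′ end.

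Peak widths give the only graded value in the lists, and they were similar at both ends where both had a peak. In the 28 shared regions the overlap ran from 62.9% to 98.6% of the wider peak, with a median of 90.9%. The proximal peak was the wider in 15 regions, the distal peak in 12, and in 1, the promoter of Cstf2t, both were equal. The widest difference was downstream of Npr1, with 1145 bp in the proximal and 782 bp in the distal list. It was followed by the Prkg2 start, with 904 bp against 1256 bp, and by a Prkg1 intron region, with 699 bp against 1026 bp. The shared regions had a median width of 918.5 bp, against 504.0 bp for the 12 single-end regions, and the same held over all regions, with medians of 812 bp for shared, 510 bp for proximal-only and 497.0 bp for distal-only regions. The 3 widest of them were both Prkg1 promoters and the proximal-only region upstream of Prkg2. The depth behind each peak is not in the lists.

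**Figure D4:**
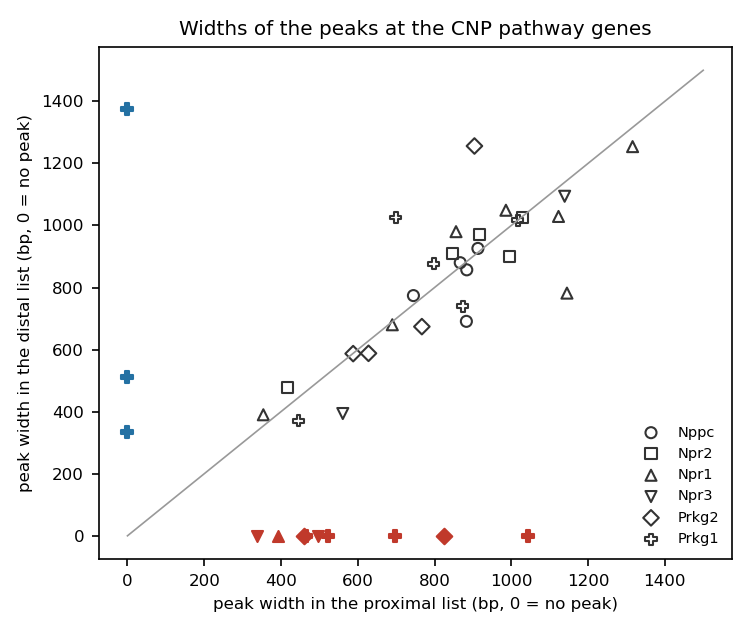
Width of the distal peak against width of the proximal peak, in bp, for the 40 regions, with 1 symbol per gene. Open symbols are shared regions and follow the grey line of equal widths; red symbols on the lower axis have no distal peak and blue symbols on the left axis have no proximal peak, and the blue cross at 1375 bp is the Prkg1 beta start.

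Most of the listed genes around the 6 in the same signal route had a promoter region. The list of 29 such genes was chosen with earlier results of these data known, so its share only describes it. Of the 29, 27 are reported here. Of these 27, 21 had a promoter region in either list, 19 in the proximal and 21 in the distal. The share of all autosomal protein-coding genes was 59.1%. CpG-rich and other promoter windows differed in general (88.2% and 34.9% with a region), and the list was not matched for this. All 3 subunit genes of soluble guanylyl cyclase (Gucy1a1, Gucy1a2 and Gucy1b1), which make cyclic GMP in response to nitric oxide, had a shared promoter region. So had 7 of 8 phosphodiesterase genes, which break cyclic nucleotides down, while Pde9a, an enzyme selective for cyclic GMP, had a promoter peak of 601 bp in the distal list only. In the FGF receptor and MAP kinase arm, Fgfr3, Map2k1 and Map2k2 had one in both lists and Mapk3 had none. Among substrates and partners of the kinases, Vasp, Ppp1r12a, Itpr1 and Gsk3b had one and Irag1 (Mrvi1 in the annotation) did not. Sox9, the chondrocyte transcription factor, had a shared promoter region, 800 bp wide after merging the peaks of both ends.

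The ligands and their processing enzymes were the group with the fewest open starts, 2 of 6. Nppa and Nppb, the atrial and brain natriuretic peptide genes, had no promoter region, and neither did Ostn, whose product binds the clearance receptor, nor Furin, a protease that cuts the CNP precursor. Corin, the protease that activates the atrial peptide, had a distal-only promoter peak of 570 bp, and Mme, the membrane protease neprilysin that degrades natriuretic peptides, had 3 promoter regions, each with a peak at both ends. By role, Nppc alone of the 3 natriuretic peptide genes, none of the 3 receptor genes and both kinase genes had a peak at a start. Of all autosomal protein-coding genes 59.1% had one, and these counts are too small to read a pattern by role from them. Furin and Mapk3, which are expressed in most cell types, were without a promoter region in these lists as well, and expression was not measured.

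**Figure D5:**
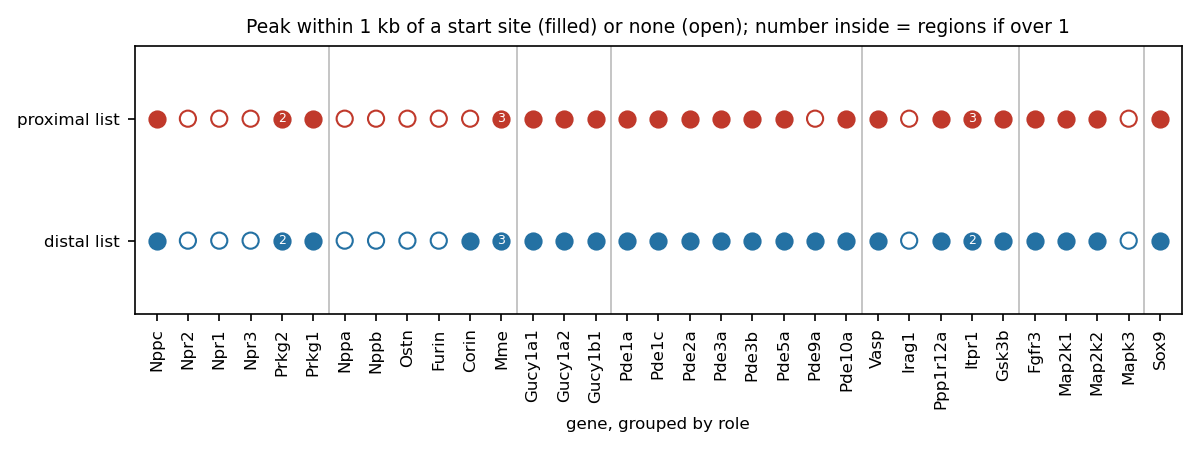
Presence (filled) or absence (open) of a peak within 1 kb of a start site for the 6 genes (left block) and the 27 further pathway genes, grouped by role, in the proximal (red) and distal (blue) lists. Open circles fall on the 3 receptor genes and on most ligand and processing genes, and Corin and Pde9a are filled in the distal row only.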

How the data were processed

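ATAC-seq was performed by the authors on proximal and distal femoral growth plates, with 2 replicates per end. According to the labels and the methods, reads were aligned to mm10 (GRCm38) with Bowtie2 2.2.8, duplicates were removed, and MACS2 (2.1.1 in the submitters' processing notes) called peaks that were kept at an IDR under 0.05. The deposited lists hold positions only, so the depth behind each peak is unknown and no score was used.

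Start positions were taken as 0-based and converted. Peaks of both lists overlapping by at least 1 bp were merged, and regions were assigned with GENCODE release 21 with pysam 0.24.0, SciPy 1.17.1 and Matplotlib 3.10.9 under Python 3.11.15. Motif letters were searched on both strands of GRCm38 in the central 200 bp and in whole regions. Promoter windows came from RefSeq, whose table held 6 windows for 5 of the genes. Merging was tested on simulated data, in which 3000 of 3000 regions were recovered. The simulated regions were mostly far apart with at most 1 peak per end, so the joining of several close peaks was not covered.

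No test between groups was possible with 1 list per end. Named genes were the 6 genes, the owners of start sites within 1 kb of a region, the nearest genes, and the pathway and marker lists. Results for 2 of 29 listed pathway genes and the blood marker list are not reported here and are left out of the counts, so that between 21 and 23 of the 29 had a promoter region. The other marker lists are whole. The members and lists were chosen with earlier results of these data known. Alternatives were other windows, promoter limits, overlap rules and a width filter.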

Additional observations from a re-analysis of the deposited data

How the results depend on the processing

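No paired analysis was possible because each femur end has 1 combined list, in which the replicates are not separate. With a window of 200 kb in place of 100 kb there were 67 regions at the 6 genes, 19 of them called at 1 end only. Without peaks narrower than their list's median width, 24 regions were left, 5 of them called at 1 end only, and 8 lay inside the genes. Under this filter 9 regions had a start of the 6 genes as nearest protein-coding start, against 16 with all peaks. This count is not limited to the 100 kb windows. The 16 are 15 of the 40 regions and the Npr3 region outside its window. The share of regions with the AP-1 letters was 12.5% in the central 200 bp and 30.0% in whole regions. These counts follow from a larger search area or fewer peaks. The share called at 1 end only stayed between 20.8%, with the width filter, and 30.0%. The 27.0% over all regions is without that filter, and no filtered share over all regions is given. Single-end regions were narrower in general, so the 20.8% cannot be read beside the 27.0%. The 12 single-end regions were the same number under a reciprocal overlap of 50% and when a peak of the other end within 500 bp counted as shared. Neither rule could change it here. The lowest overlap among shared regions was 62.9% of the wider peak. The closest peak of the other end lay 1210 bp from a single-end region. The 3 genes with a promoter region were 3 under every start site definition, including RefSeq start sites, an alternative chosen after seeing the data. In all, 17 recomputed values of these main counts and shares were kept and 7 moved. The kept values include those of the overlap and 500 bp rules, which could not move. Kept does not mean unchanged. A window of 50 kb gave 28 regions, 8 of them called at 1 end only, and both were counted as kept. With all annotated genes in place of protein-coding ones, 11 regions had a start of the 6 genes as nearest, against 16, and this too was counted as kept. Of the region counts of single genes and the shares of other motif letters, 15 recomputed values were kept and 15 moved. With 200 kb, Nppc had 11 regions, Npr2 11, Npr1 19, Npr3 6, Prkg2 6 and Prkg1 14. Depth per peak was not available, so a peak missing at 1 end is not evidence of closed chromatin.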
